A study of Homo sapiens with 8 samples.

Results

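The 10 genes described here encode the subunits of the transcription factor NF-κB and the proteins that hold it back: the subunits NFKB1, NFKB2, RELA, RELB and REL, the IκB inhibitors NFKBIA, NFKBIB and NFKBIE, the ubiquitin-editing enzyme TNFAIP3 (A20) and its binding partner TNIP1. They were chosen by name, and every probe set annotated to exactly 1 of these symbols was taken, which gave 22 of the 41091 probe sets that carry 1 symbol on the Affymetrix U133 Plus 2.0 array. The array measured 19775 genes in all. Where a gene has several probe sets, the brightest over all arrays represents it in counts, and the others are given beside it. All 22 probe sets were fitted, with no filter on level.

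NF-κB is a dimer of REL-family subunits that IκB proteins keep in the cytoplasm of resting cells. The IκB kinase complex, of which IKKβ is a catalytic subunit, phosphorylates IκB, which is then degraded, and the freed dimer enters the nucleus. NFKB1, NFKB2, NFKBIA and TNFAIP3 are textbook NF-κB targets themselves, so that the pathway feeds both its own subunits and its own inhibitors. In B-lineage cells NF-κB governs survival and activation genes, and IRF5, of the interferon regulatory factors, can act on some of the same promoters.

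The cells were Reh, an established line derived from acute lymphoblastic leukaemia, and all groups were transfected. The combination group received IRF5-4D and IKKβ(EE) together, the second group IKKβ(EE) alone, the third group IRF5-4D alone, and the mock group control constructs. IRF5-4D and IKKβ(EE) are constitutively active variants of IRF5 and IKKβ. Each group had 2 arrays, labelled 1 and 3, 8 in all, which the submitters call biological duplicates. The time to harvest, the share of transfected cells and the meaning of the numbers 1 and 3 are not stated in the labels. The RNA came from whole cultures, so a change in every cell and a larger change in some of the cells cannot be told apart, nor can fewer cells of a type and less RNA per cell.

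All values are log2 expression values made by RMA, so a difference of 1 is a factor of 2, and a difference was called at an adjusted p under 0.05 in limma, adjusted over 54613 probe sets. Over all probe sets, duplicates correlated at 0.9938 to 0.9959, the array medians lay between 5.09 and 5.13, and the lower quartiles lay between 3.67 and 3.73. The IKBKB probe set 211027_s_at, which reads the gene of IKKβ, was at 11.11 and 9.33 in the combination (arrays 1 and 3), at 12.57 and 10.98 with IKKβ(EE), at 4.68 and 4.60 with IRF5-4D and at 4.80 and 4.06 in mock. It was higher than mock by 5.79 in the combination (adjusted p = 0.00104) and by 7.35 with IKKβ(EE) (adjusted p = 0.0012), so the arrays match their labels for this construct. For IRF5, probe set 205469_s_at was higher than mock in the combination (0.92, adjusted p = 0.00648) and was not called with IRF5-4D alone (0.20, adjusted p = 0.943). It was also higher in the combination than with IRF5-4D alone (0.71, adjusted p = 0.0414). Its part in the comparisons between these groups below was not tested. A second IRF5 probe set, 205468_s_at, was at 5.56 and 5.60 in the combination, 5.13 and 5.04 with IKKβ(EE), 5.65 and 5.66 with IRF5-4D and 5.36 and 4.82 in mock. All 4 arrays with IRF5-4D lay above the 4 without it, but neither difference from mock passed (0.49 in the combination, adjusted p = 0.208, and 0.57 with IRF5-4D, adjusted p = 0.688). The remaining IRF5 probe set, 239412_at, differed from mock by 0.28 in the combination (adjusted p = 0.417) and by 0.05 with IRF5-4D (adjusted p = 0.991). Of the lists of lineage markers, 12 B-lineage genes had array medians of 12.24 to 12.6, and 10 of the 12 lay above the median of all probe sets. The exceptions were VPREB1, at 4.06 to 4.46, and ETV6, at 4.51 to 5.03. The 10 T and NK cell markers had array medians of 4.72 to 4.98 and the 8 myeloid markers 3.90 to 4.31, with 0 called against mock in any group. Above the median of all probe sets lay 4 of 10 T and NK cell markers, 3 of 8 myeloid markers and 4 of 8 stromal and epithelial markers. The linear levels of 8 stromal and epithelial markers summed to 602 to 915 in the combination, 387 to 403 with IKKβ(EE), 404 to 459 with IRF5-4D and 429 to 450 in mock, with 1 of 8 called in the combination. That gene was CDH1, the epithelial cadherin, at 9.03 and 7.39 in the combination and 3.19 and 3.31 in mock. It was at 3.31 and 3.52 with IKKβ(EE) and at 5.32 and 4.62 with IRF5-4D, and its part in the results below was not tested. The other 7 of these markers were not called in the combination, and the median difference of the 8 from mock there was -0.03.

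Promoter windows were read from RefSeq (GRCh38.p14), from 250 bases before to 50 bases after each annotated start, for 8 of the 10 genes; RELB and NFKBIE were not matched. Of these 8 genes, 7 held at least 1 match of 10 bases to the general κB consensus, the sequence that NF-κB dimers bind, on either strand, in 8 of their 14 windows. Of all 35116 windows in RefSeq, 11.3% held such a match, and 13.3% of 27305 genes held one in any window. A match is a run of letters and was not tested for binding. The windows below are shown for the 2 genes that rose in the combination by their brightest probe set, for NFKB2, NFKBIA and TNFAIP3, and for NFKBIB, whose level differed little between groups. Each is written 5′ to 3′ on the strand of the gene, with κB matches in capitals (adjoining or overlapping matches run together).
NFKB1, first start, chr4:102501109-102501408, plus strand: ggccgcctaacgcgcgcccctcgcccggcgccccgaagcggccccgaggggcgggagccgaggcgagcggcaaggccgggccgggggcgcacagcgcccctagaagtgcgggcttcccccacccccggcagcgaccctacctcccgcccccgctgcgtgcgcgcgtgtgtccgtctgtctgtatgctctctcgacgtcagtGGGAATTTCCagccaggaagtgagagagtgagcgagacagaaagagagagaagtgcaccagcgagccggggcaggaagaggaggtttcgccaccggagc
TNIP1, second start, chr5:151080985-151081284, minus strand: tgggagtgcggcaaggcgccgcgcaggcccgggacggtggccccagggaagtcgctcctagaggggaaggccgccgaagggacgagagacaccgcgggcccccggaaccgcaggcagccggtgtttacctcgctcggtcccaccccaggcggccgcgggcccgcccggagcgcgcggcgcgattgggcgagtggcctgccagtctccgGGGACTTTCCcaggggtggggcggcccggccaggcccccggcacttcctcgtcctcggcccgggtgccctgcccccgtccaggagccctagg
NFKB2, second start, chr10:102394328-102394627, plus strand: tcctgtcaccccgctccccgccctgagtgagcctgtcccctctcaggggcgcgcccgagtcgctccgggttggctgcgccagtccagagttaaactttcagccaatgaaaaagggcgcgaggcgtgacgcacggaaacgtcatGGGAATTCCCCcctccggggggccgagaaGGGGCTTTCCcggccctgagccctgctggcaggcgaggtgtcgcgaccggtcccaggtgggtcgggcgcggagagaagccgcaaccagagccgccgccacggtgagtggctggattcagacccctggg
NFKBIA, chr14:35404700-35404999, minus strand: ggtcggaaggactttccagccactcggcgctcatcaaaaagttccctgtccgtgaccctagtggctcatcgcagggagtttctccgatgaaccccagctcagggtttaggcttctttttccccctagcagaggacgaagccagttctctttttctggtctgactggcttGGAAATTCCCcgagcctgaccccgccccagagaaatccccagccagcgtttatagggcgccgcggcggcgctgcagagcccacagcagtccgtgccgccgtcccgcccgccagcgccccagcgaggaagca
TNFAIP3, chr6:137867009-137867308, plus strand: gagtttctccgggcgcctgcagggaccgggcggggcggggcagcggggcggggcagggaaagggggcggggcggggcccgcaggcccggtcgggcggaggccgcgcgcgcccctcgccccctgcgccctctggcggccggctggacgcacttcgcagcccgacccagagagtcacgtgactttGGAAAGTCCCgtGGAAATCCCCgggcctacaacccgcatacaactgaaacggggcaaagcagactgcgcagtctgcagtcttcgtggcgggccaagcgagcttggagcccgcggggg
NFKBIB, second start, chr19:38899719-38900018, plus strand: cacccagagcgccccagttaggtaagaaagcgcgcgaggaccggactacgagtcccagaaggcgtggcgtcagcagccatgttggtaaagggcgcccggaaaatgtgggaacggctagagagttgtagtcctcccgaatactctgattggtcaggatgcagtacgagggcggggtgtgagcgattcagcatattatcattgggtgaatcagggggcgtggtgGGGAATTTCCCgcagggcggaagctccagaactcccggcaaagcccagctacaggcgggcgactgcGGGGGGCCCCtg

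The match of NFKB1 lay 49 to 40 bases before its start and that of TNIP1 42 to 33 bases before its second start. NFKB2 held matches at 2 of its 3 starts: before the second start 2 overlapping ones from 107 to 97 bases and another from 78 to 69 bases, and before the third start one from 176 to 167 and one from 21 to 12 bases. TNFAIP3 held a pair, 67 to 58 and 55 to 46 bases before its start, and NFKBIA 1 match 81 to 72 bases before. REL held overlapping matches from 47 to 37 bases before its start. NFKBIB held matches from 28 to 18 bases before its second start and from 39 to 48 bases after it. Whether a match goes with a change in level was not tested. RELA held no κB match in either of its windows. The core of the interferon-stimulated response element, GAAANNGAAA, which interferon regulatory factors bind, was found in 1 of the 8 genes, RELA, 237 to 228 bases before its first start, while 4.38% of all genes held it in any window.

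**Figure D1:**
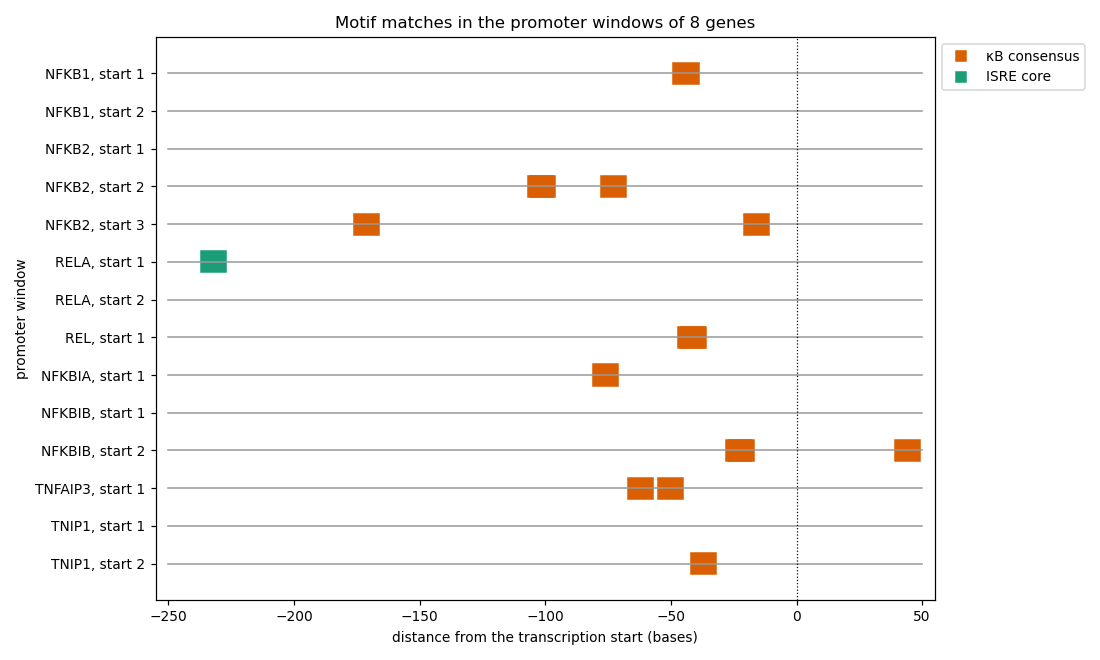
Positions of the κB consensus (orange) and of the interferon-stimulated response element core (green) in the 14 promoter windows of 8 genes, in bases from the annotated transcription start. Each line is 1 window; 8 of the 14 windows hold a κB match, and the 1 response element core is in RELA.

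With both constructs together, 2 of the 10 genes rose against mock by their brightest probe set, NFKB1 and TNIP1, and 0 fell, while 2.74% of all genes were called in this comparison and 2.38% were called higher. By probe sets, 3 of the 22 were called, where 2.09% of all probe sets were, and the third was a probe set of TNFAIP3. With IKKβ(EE) alone 1 of 10 genes rose, NFKB1, where 0.425% of all genes were called. With IRF5-4D alone 0 of 10 were called, where 0.293% of all genes were called. At an unadjusted p under 0.05 the counts were 7, 6 and 2 of 10, so the number of genes called rests on the adjustment. The share of all genes under that unadjusted p was not counted, so these counts do not set the members apart from other genes.

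The differences of the members from mock lay above 0 in 9 of 10 genes in the combination (44.4% of all genes). They did so in 9 with IKKβ(EE) (43.8%) and in 9 with IRF5-4D (45.7%). Their medians were 0.86, 0.59 and 0.30 in those comparisons, while the medians over all genes were -0.03, -0.02 and -0.02. Both arrays of the group lay above both mock arrays for 7 of 10 members in the combination (19.4% of all genes), 7 with IKKβ(EE) (15.1%) and 4 with IRF5-4D (13.4%). They lay below both mock arrays for 0 members in the combination (25.1% of all genes), 0 with IKKβ(EE) (21.2%) and 1 with IRF5-4D (17.8%). These comparisons share the same 2 mock arrays, so a low or high mock array moves all of them together.

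**Figure D2:**
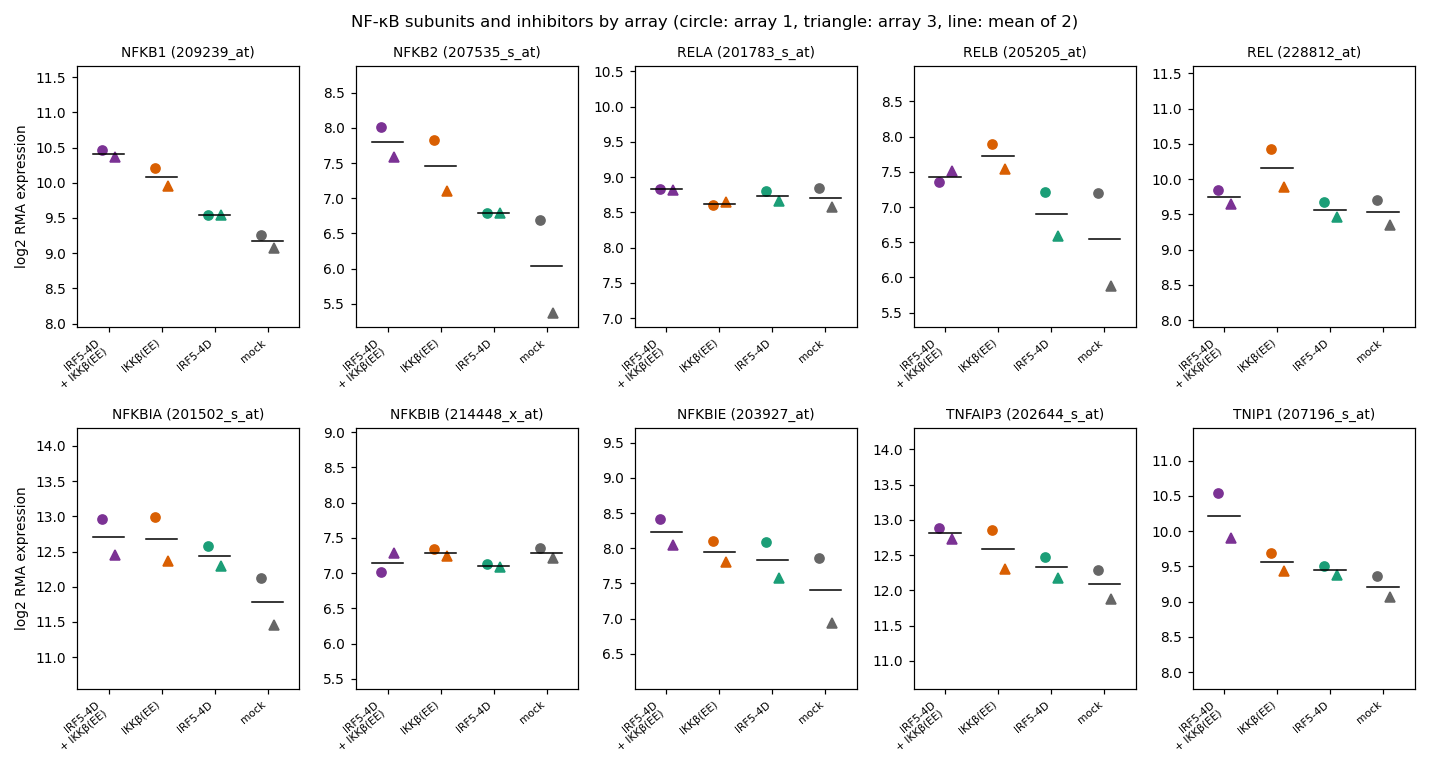
Log2 RMA expression of the brightest probe set of each of the 10 genes on all 8 arrays, by group (combination, IKKβ(EE), IRF5-4D, mock); circles are arrays numbered 1, triangles arrays numbered 3 and lines the mean of both. Each panel spans the same number of log2 units; NFKB1 descends from the combination to mock without overlap, and RELA and NFKBIB are nearly level.

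Among the subunits, NFKB1, which encodes p105 and its processed form p50, had the smallest adjusted p of the 10 genes in the combination. It was at 10.47 and 10.36 in the combination (arrays 1 and 3), at 10.21 and 9.95 with IKKβ(EE), at 9.55 and 9.54 with IRF5-4D and at 9.26 and 9.08 in mock. The 4 groups did not overlap, in the order combination, IKKβ(EE), IRF5-4D, mock. In the combination it rose by 1.24 (SE 0.13, 2.37-fold, adjusted p = 0.00141) over mock, and the call held without any 1 of the 8 arrays, with differences of 1.15 to 1.34. With IKKβ(EE) alone it rose by 0.91 (SE 0.13, 1.87-fold, adjusted p = 0.0302), with differences of 0.87 to 0.94 on the arrays of each number. That call held in 2 of 8 fits that left out 1 array, those without a combination array, and was lost without any 1 array of the other 3 groups (adjusted p up to 0.346). NFKB1 was also higher in the combination than with IRF5-4D alone, by 0.87 (SE 0.13, adjusted p = 0.0204), a call lost without any 1 array of either of these groups. Against IKKβ(EE) alone, the combination differed by 0.34 (95% interval 0.04 to 0.64, adjusted p = 0.399), and that between IRF5-4D and mock was 0.37 (95% interval 0.08 to 0.67, adjusted p = 0.847). The test of whether the combination departed from the sum of the single constructs gave -0.04 (95% interval -0.46 to 0.39, adjusted p = 0.991).

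NFKB2 encodes p100, which acts as an inhibitor until it is processed to p52 in the alternative pathway. Its brightest probe set was at 8.02 and 7.58 in the combination, at 7.82 and 7.10 with IKKβ(EE), at 6.80 and 6.80 with IRF5-4D and at 6.70 and 5.37 in mock. The mock arrays stood further apart than those of any other group, and mock array 3 was the lowest of all 8. The difference between the combination and mock was 1.76 (SE 0.38, 3.40-fold), the largest of the 10 genes, and it did not pass (adjusted p = 0.0516). It passed in 1 of 8 fits that left out 1 array, the one without mock array 1, where it was 2.43 (adjusted p = 0.00707), and was 1.10 at the other end of that range. It also passed in 7 of 13 other settings, among them a fit on 1 probe set per gene. Of these 7, 1 was the same fit at the looser threshold of an adjusted p under 0.1, which 0.0516 meets by itself. With IKKβ(EE) alone the difference from mock was 1.43 (adjusted p = 0.363). The second probe set of NFKB2, 209636_at, was at 6.43 and 6.14 in the combination, at 6.34 and 6.04 with IKKβ(EE), at 5.63 and 5.35 with IRF5-4D and at 5.71 and 5.87 in mock. Here the 4 arrays with IKKβ(EE) lay above the 4 arrays without it, the difference from mock was 0.49 in the combination (adjusted p = 0.199), and that from IRF5-4D was 0.79 (adjusted p = 0.0694). The third, 211524_at, lay between 2.92 and 3.30 on all arrays, below the lower quartile.

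RELB, the partner of p52 in the alternative pathway, was at 7.35 and 7.52 in the combination, at 7.90 and 7.54 with IKKβ(EE), at 7.21 and 6.58 with IRF5-4D and at 7.20 and 5.88 in mock. As for NFKB2, mock array 3 was the lowest, 1.32 below mock array 1. The difference from mock was 1.18 with IKKβ(EE) (SE 0.37, adjusted p = 0.536) and 0.89 in the combination (SE 0.37, adjusted p = 0.312). In the combination it was 0.15 between the arrays numbered 1 and 1.64 between those numbered 3; the larger one is against mock array 3. Without mock array 1, and so against mock array 3 alone, both differences passed, at 1.84 with IKKβ(EE) (adjusted p = 0.0464) and 1.55 in the combination (adjusted p = 0.0343).

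RELA, which encodes p65, the main activating subunit of the classical dimer, was nearly level. Its brightest probe set was at 8.84 and 8.82 in the combination, at 8.60 and 8.64 with IKKβ(EE), at 8.81 and 8.66 with IRF5-4D and at 8.85 and 8.57 in mock. The combination minus mock was 0.12 (95% interval -0.17 to 0.41, adjusted p = 0.756), and IKKβ(EE) minus mock was -0.09 (95% interval -0.38 to 0.20, adjusted p = 0.951). The second probe set, 209878_s_at, gave -0.16 and -0.23 in these comparisons, and neither passed.

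REL encodes c-Rel, a subunit prominent in lymphoid cells, and was read by 5 probe sets. On the brightest, 228812_at, it was at 9.85 and 9.65 in the combination, at 10.43 and 9.89 with IKKβ(EE), at 9.67 and 9.46 with IRF5-4D and at 9.71 and 9.35 in mock. The IKKβ(EE) arrays were the highest pair, above both mock arrays and both combination arrays, and the combination overlapped mock. On the 4 brighter probe sets the mean with IKKβ(EE) alone was the highest of the 4 groups: it lay above mock by 0.52 to 0.63, with adjusted p of 0.457 to 0.824, and 0 of 4 passed. The combination lay below IKKβ(EE) alone on these 4, at -0.20 to -0.69, with the arrays of the groups apart on 3 of 4 (all but 206036_s_at), and 0 of 4 passed (adjusted p of 0.508 to 0.796). The dimmest probe set, 206035_at, lay at 3.91 to 5.05 on all arrays, below their medians, and is not shown to lie above background. It gave 0.82 for IKKβ(EE) minus mock (adjusted p = 0.298) and -0.50 for the combination minus IKKβ(EE) (adjusted p = 0.426). The 5 probe sets read 1 gene in the same RNA and are not independent of each other. The IKBKB probe set of the construct stood in the same order, at 11.11 and 9.33 in the combination and 12.57 and 10.98 with IKKβ(EE), a difference of -1.56 (adjusted p = 0.375), and its part in the REL values was not tested.

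**Figure D3:**
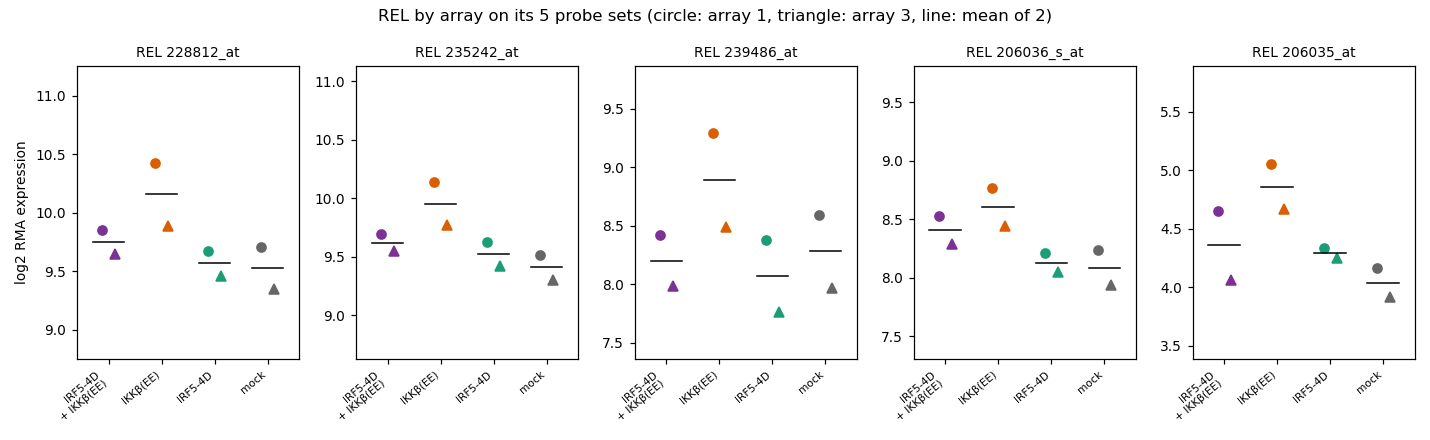
Log2 RMA expression of REL on its 5 probe sets and 8 arrays, by group; circles are arrays numbered 1, triangles arrays numbered 3 and lines the mean of both. On each of the 5 the mean with IKKβ(EE) alone is the highest, and none of these differences passed the test.

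Of the IκB inhibitors, 0 of 3 were called against mock in these fits. Of all genes, 2.74% were called in the combination, 0.425% with IKKβ(EE) and 0.293% with IRF5-4D. A count of 0 of 3 therefore does not set the inhibitors apart from other genes. NFKBIA (IκBα), the inhibitor that is degraded first and resynthesised fastest, was at 12.96 and 12.45 in the combination, at 12.99 and 12.36 with IKKβ(EE), at 12.58 and 12.29 with IRF5-4D and at 12.12 and 11.45 in mock. Both arrays of every construct group lay above both mock arrays, while those 3 groups overlapped one another. The difference from mock was 0.92 in the combination (SE 0.28, adjusted p = 0.157), 0.89 with IKKβ(EE) (SE 0.28, adjusted p = 0.528) and 0.65 with IRF5-4D (SE 0.28, adjusted p = 0.909). A second probe set, 231699_at, lay between 4.49 and 4.86 on all arrays and gave a difference of 0.09 in the combination (adjusted p = 0.849).

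NFKBIE (IκBε), an inhibitor whose resynthesis is delayed relative to that of IκBα, was at 8.42 and 8.04 in the combination, at 8.10 and 7.80 with IKKβ(EE), at 8.09 and 7.58 with IRF5-4D and at 7.87 and 6.94 in mock. The combination arrays lay above both mock arrays, and the single constructs overlapped mock. The combination minus mock was 0.83 (SE 0.29, adjusted p = 0.227), with 0.55 between the arrays numbered 1 and 1.10 between those numbered 3.

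NFKBIB (IκBβ), which is not a feedback target of NF-κB in the textbook scheme, was at 7.01 and 7.28 in the combination, at 7.34 and 7.25 with IKKβ(EE), at 7.13 and 7.08 with IRF5-4D and at 7.36 and 7.22 in mock. The combination overlapped mock, with a difference of -0.14 (95% interval -0.43 to 0.15, adjusted p = 0.704). Its 3 probe sets gave -0.14, -0.12 and 0.02 in the combination, and the first 2 end in _x_at, which marks probes that may bind several transcripts.

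In the A20 group, TNIP1 (ABIN1), which binds A20 and ubiquitin chains and restrains the pathway, was at 10.54 and 9.90 in the combination, at 9.69 and 9.44 with IKKβ(EE), at 9.51 and 9.38 with IRF5-4D and at 9.36 and 9.06 in mock. Both combination arrays lay above all 6 others. It rose by 1.01 over mock (SE 0.21, 2.01-fold, adjusted p = 0.0424). The call was lost without any 1 array other than combination array 3, with differences of 0.69 to 1.33 and adjusted p up to 0.168, and in fits on the mean of its 2 probe sets (0.33, adjusted p = 0.426). The combination minus IKKβ(EE) alone was 0.66 (SE 0.21, adjusted p = 0.25), and the departure from the sum of the single constructs was 0.42 (95% interval -0.24 to 1.08, adjusted p = 0.886). The second probe set, 243423_at, went the other way, at 6.45 and 6.20 in the combination and 6.77 and 6.59 in mock, a difference of -0.35 (adjusted p = 0.406).

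TNFAIP3 (A20), a deubiquitinase and ubiquitin ligase that shuts down signalling upstream of IKK, was read by 2 bright probe sets. On 202644_s_at, the brighter, it was at 12.89 and 12.73 in the combination, at 12.86 and 12.30 with IKKβ(EE), at 12.48 and 12.18 with IRF5-4D and at 12.29 and 11.88 in mock, and the combination minus mock was 0.72 (SE 0.21, adjusted p = 0.139). On 202643_s_at it was at 12.02 and 11.69 in the combination, at 11.71 and 11.17 with IKKβ(EE), at 11.25 and 11.00 with IRF5-4D and at 10.90 and 10.70 in mock. There it rose by 1.05 (SE 0.20, 2.07-fold, adjusted p = 0.0285) in the combination. That call was lost in 5 of 8 fits that left out 1 array, those without combination array 1, either IRF5-4D array or either mock array, with adjusted p up to 0.161. On both probe sets the combination arrays lay above all IRF5-4D and mock arrays, and the 2 probe sets differ in size and in the call, not in direction.

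**Figure D4:**
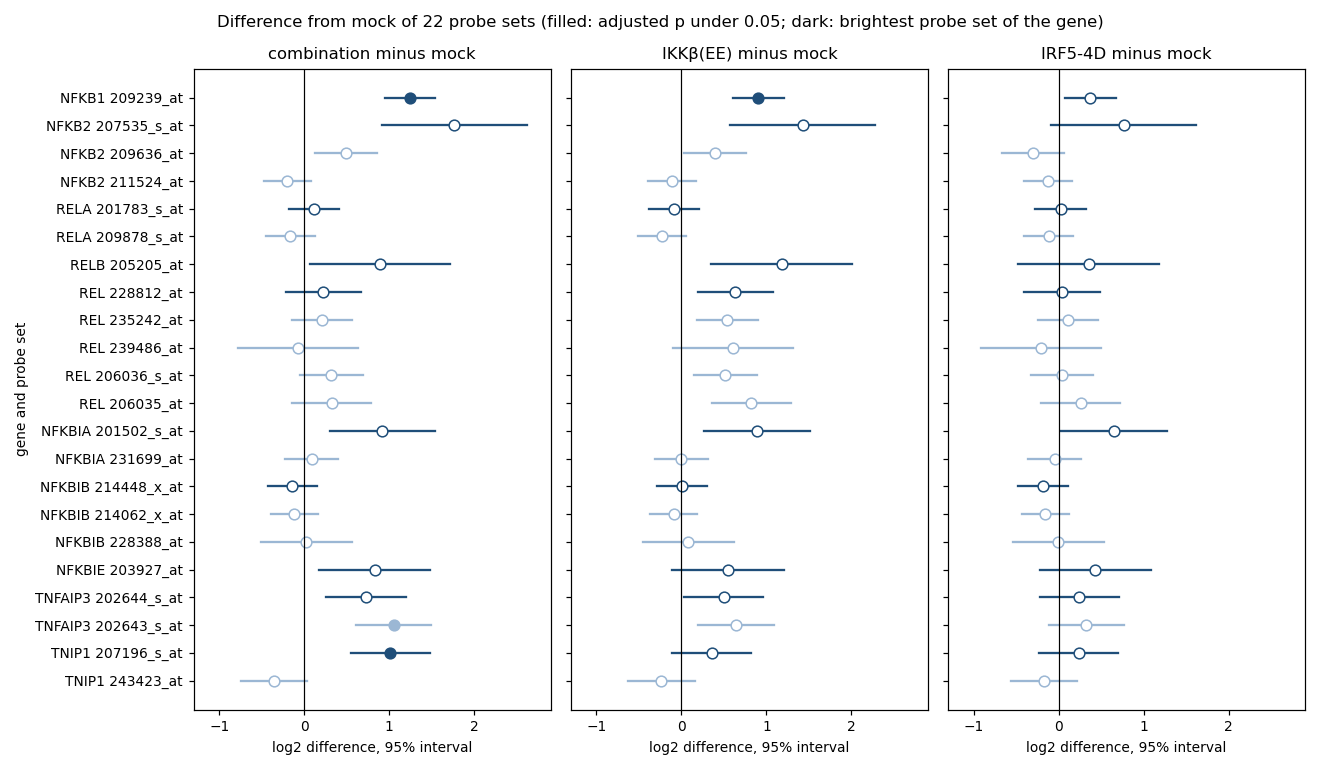
Log2 difference from mock of all 22 probe sets in the combination, with IKKβ(EE) and with IRF5-4D, with 95% intervals; filled points passed at an adjusted p under 0.05 and dark points are the brightest probe set of a gene. The combination has 3 filled points (NFKB1, TNFAIP3 on 202643_s_at and TNIP1), IKKβ(EE) has 1 (NFKB1) and IRF5-4D has 0.

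By level, 7 of the 10 genes were highest in the combination and 3, RELB, REL and NFKBIB, were highest with IKKβ(EE) alone; 8 were lowest in mock. In 6 genes the order was combination, IKKβ(EE), IRF5-4D, mock. NFKB2 was among them by its brightest probe set, while on 209636_at its mean with IRF5-4D lay below mock (5.49 against 5.79). The shares of all genes with these orders were not counted, so these counts do not set the members apart from other genes. None of the 30 steps between neighbouring groups in the orders of the 10 genes passed the test. Between the combination and IRF5-4D, 1 of 10 genes was called, NFKB1, where 1.13% of all genes were called. All 10 differences lay above 0, with a median of 0.44, where 48.7% of all genes did, with a median of -0.01. Between the combination and IKKβ(EE), 0 of 10 were called, where 1.5% of all genes were called. Here 7 of 10 differences lay above 0, with a median of 0.22, where 48.7% of all genes did, with a median of -0.01. Between IKKβ(EE) and IRF5-4D, 0 of 10 were called, where 0.693% of all genes were called. The departure of the combination from the sum of the single constructs was called for 0 of 10, where 0.101% of all genes were called. It lay below 0 in 7 of 10, with a median of -0.09, and 0 of 10 had an unadjusted p under 0.05. Over all genes it lay above 0 in 53.3%, with a median of 0.02.

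The arrays numbered 1 read higher than those numbered 3 for most members. Array 1 was the higher in 8 of 10 genes in the combination, 9 with IKKβ(EE), 10 with IRF5-4D and 10 in mock, with median gaps of 0.18, 0.33, 0.18 and 0.38. Over all genes array 1 was the higher in 46.2% to 49.5%. The IKBKB probe set of the construct was also higher on array 1, by the values above, and its part in the tilt was not tested. Within 1 number the called differences of the combination from mock were similar: 1.20 and 1.28 for NFKB1, 1.18 and 0.84 for TNIP1, and 1.12 and 0.99 for TNFAIP3 on 202643_s_at.

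The other parts of the pathway were listed by role, and the lists were drawn up with earlier results of these data known. Of 3 other IκB-like proteins measured, 1 rose in the combination, where 2.74% of all genes were called. This was NFKBIZ (IκBζ), a nuclear cofactor of NF-κB, at 10.64 and 10.01 in the combination, 9.52 and 8.67 with IKKβ(EE), 9.30 and 9.50 with IRF5-4D and 7.68 and 7.37 in mock. It rose by 2.80 (SE 0.28, adjusted p = 0.000957) in the combination and by 1.88 with IRF5-4D (SE 0.28, adjusted p = 0.0427), and gave 1.57 with IKKβ(EE) (adjusted p = 0.0759). Its call with IRF5-4D was lost without any 1 IRF5-4D or mock array. That call held in 10 of 13 other settings. It was lost with the probe sets of the gene averaged, with the robust option of limma and with array weights. All 6 construct arrays lay above both mock arrays.

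Of 18 other ubiquitin editors and adaptors measured, 4 rose in the combination, 1 with IKKβ(EE) and 0 with IRF5-4D, and 0 fell, where 2.74%, 0.425% and 0.293% of all genes were called; the medians were 0.29, 0.15 and 0.08. TRAF1, an adaptor of TNF receptors, was at 9.73 and 9.11 in the combination, 7.38 and 6.78 with IKKβ(EE), 6.81 and 6.50 with IRF5-4D and 6.08 and 5.29 in mock. It rose by 3.74 over mock in the combination (SE 0.30, adjusted p = 0.000263; 2.43 with its probe sets averaged), and was higher there than with IKKβ(EE) alone by 2.34 (adjusted p = 0.00666). TNIP2 (ABIN2), a relative of TNIP1, rose in the combination by 1.72 (SE 0.18, adjusted p = 0.00105), at 10.43 and 9.85 against 8.37 and 8.46 in mock. TANK, an adaptor of the IKK-related kinases, was at 10.55 and 10.36 in the combination, 10.54 and 10.27 with IKKβ(EE), 9.29 and 8.79 with IRF5-4D and 9.25 and 9.07 in mock. It rose by 1.30 in the combination (adjusted p = 0.00649) and by 1.25 with IKKβ(EE) (adjusted p = 0.0295), and all 4 arrays with IKKβ(EE) lay above all 4 without. CYLD, a deubiquitinase that opposes the pathway, rose by 1.07 in the combination (adjusted p = 0.0404) and gave 1.31 with IKKβ(EE) (adjusted p = 0.0527). With its probe sets averaged CYLD no longer passed in the combination (0.55, adjusted p = 0.208). Without 1 array, the call of CYLD in the combination held in 2 of 8 fits, those without an IKKβ(EE) array, that of TANK in 7 of 8 (not without combination array 1, adjusted p = 0.0535), and those of TRAF1 and TNIP2 in 8 of 8. The call of TRAF1 between the combination and IKKβ(EE) was lost without IKKβ(EE) array 3. That of TANK with IKKβ(EE) was lost without any 1 IKKβ(EE) or mock array, and with its probe sets averaged (adjusted p = 0.0536).

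Of 10 genes of the IKK complex and its upstream kinases, 0 were called by their brightest probe set in the combination, with IKKβ(EE) or with IRF5-4D. Of all genes, 2.74%, 0.425% and 0.293% were called in these comparisons. The medians of the 10 genes were 0.02, 0.03 and -0.05. IKBKE (IKKε) gave 0.33 (adjusted p = 0.396) and TBK1 0.17 (adjusted p = 0.568) in the combination. The brightest IKBKB probe set, 209341_s_at, gave 0.16 in the combination (adjusted p = 0.653), so only 211027_s_at of its 3 probe sets showed the construct. Of 33 listed NF-κB targets outside the pathway, 19 rose in the combination, 11 with IKKβ(EE) and 6 with IRF5-4D, where 2.74%, 0.425% and 0.293% of all genes were called, with medians of 1.96, 1.05 and 0.23. The list was drawn up with results known, so its counts are a description. The targets include chemokines such as CCL4 and CCL5, which were higher than mock in the combination by 8.26 and 5.64. Both were also called with IRF5-4D alone, at 7.35 (adjusted p = 0.000732) and 3.70 (adjusted p = 0.00198). Neither was called with IKKβ(EE) alone (adjusted p = 0.124 and 0.0777). The combination minus IRF5-4D was 0.91 for CCL4 (adjusted p = 0.607) and 1.94 for CCL5 (adjusted p = 0.0357). EBI3 and CCR7 were higher than mock in the combination by 6.22 (adjusted p = 2.87e-05) and 5.52 (adjusted p = 9.82e-05). EBI3 was called with IKKβ(EE) alone (3.38, adjusted p = 0.00384) and not with IRF5-4D alone (0.15, adjusted p = 0.988). CCR7 was called with IKKβ(EE) alone (3.32, adjusted p = 0.00719) and with IRF5-4D alone (2.87, adjusted p = 0.0183). The chemokine CXCL8 went another way, at 7.56 and 7.30 in the combination, 11.23 and 10.74 with IKKβ(EE), 8.37 and 8.05 with IRF5-4D and 9.39 and 7.93 in mock. It was the 1 target called lower in the combination than with IKKβ(EE), at -3.56 (adjusted p = 0.00236), and its difference from mock in the combination was -1.23 (adjusted p = 0.176).

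**Figure D5:**
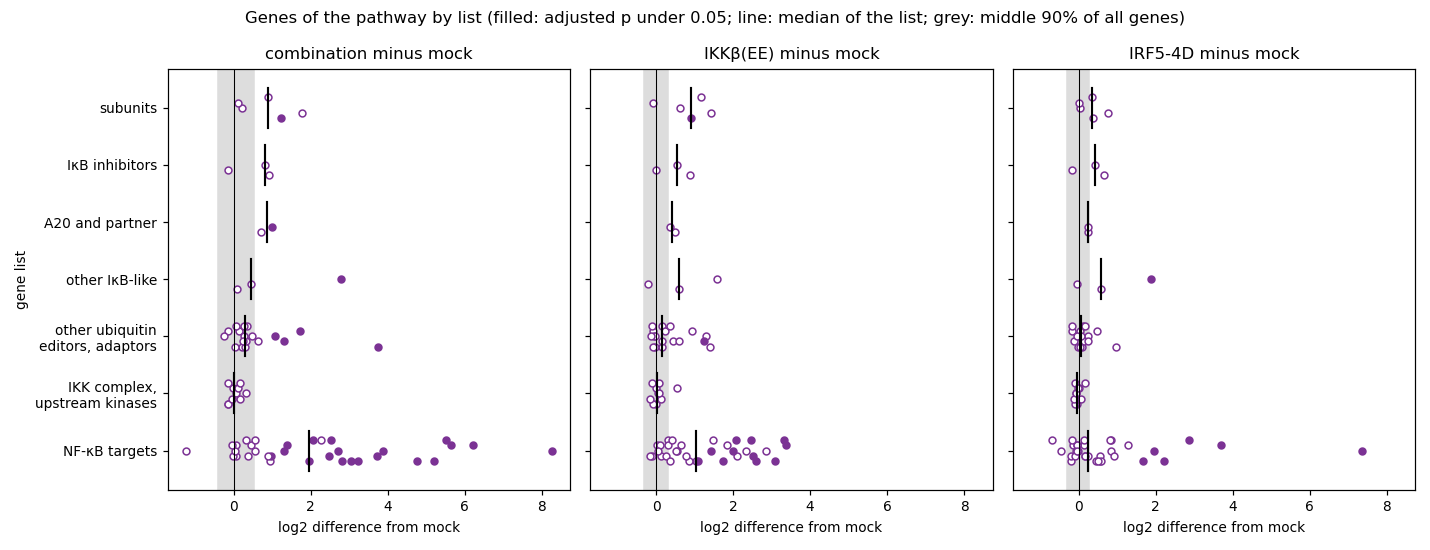
Log2 difference from mock of each measured gene of 7 lists, by its brightest probe set, in the combination, with IKKβ(EE) and with IRF5-4D, on 1 shared axis; filled points passed at an adjusted p under 0.05, black lines are the medians of the lists and the grey band spans the 5th to 95th percentile of all genes. In the combination the filled points are 1 subunit, 1 of the A20 group, 1 other IκB-like protein, 4 editors and adaptors and 19 targets.

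The genes whose profile was closest to that of NFKB2, the member with the largest difference in the combination, were searched among 19765 genes by the root mean square difference of centred log2 values over the 8 arrays. They were IFIH1 (0.27), a cytoplasmic sensor of double-stranded RNA, HVCN1 (0.28), a voltage-gated proton channel, IFIT2 (0.32), an interferon-induced gene, IER5 (0.32), an immediate early gene, and OPTN (0.33), a ubiquitin-binding adaptor. A flat profile lay at 0.78 from NFKB2, and among the members NFKB1 and NFKBIA lay at 0.38, RELB at 0.40 and NFKBIE at 0.44. These distances are a description of 8 arrays that share their groups, and mock array 3 weighs in them through its low NFKB2 value. The differences from mock in the combination were 1.97 for IFIH1 (1.17 with its probe sets averaged), 1.60 for HVCN1, 1.43 for OPTN, 1.11 for IFIT2 and 1.09 for IER5; they are given with no test, since these genes were chosen for a profile that holds the same difference.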

How the data were processed

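The authors deposited a table of log2 values (probe sets by arrays) made with RMA, per the submitters' processing notes; RMA corrects background, quantile-normalizes and summarises probes. The RMA version was not found in those notes. Precision is limited by 2 arrays per group.

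Of 54675 probe sets, 62 controls were left out. The other 54613 were fitted with limma 3.58.1 in R 4.3.3 (lmFit and eBayes, group means, all 8 arrays, 4 residual and 5.28 prior degrees of freedom), with Benjamini-Hochberg adjustment; adjusted p under 0.05 was the threshold. The code was tested on simulated data. The replicates are described as biological duplicates; nothing more is given on their source, so p-values measure the spread between these samples.

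Symbols came from the platform annotation and were matched to RefSeq for all 10 genes. Named genes were all members, the transfected genes, per list up to 4 called genes with the largest change in the combination and up to 2 per single construct (2 as values where none was called), and the 5 closest profiles; NFKBID, NFKBIL1 and other list genes enter counts only. CDH1, VPREB1, ETV6 and CXCL8 were named after their values were seen. The members and lists were chosen with earlier results of these data known. Some listed genes were not analysed here. Alternatives covered probe sets per gene, filters, scaling, limma options, groups fitted, the replicate number as a block, and leaving out each array. They also covered thresholds: an adjusted p under 0.1, and one under 0.05 with a 2-fold minimum. Alternatives for genes outside the 10 members were added after seeing the data.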

Additional observations from a re-analysis of the deposited data

How the results depend on the processing

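Of 1460 differences of the 10 members under an alternative, 1419 kept their side of the threshold and, where called, their direction, 18 passed newly and 23 no longer passed; 0 called values changed sign, and 44 values called in neither fit did. The number of members called in the combination against mock, 2 as reported, was 1 with a gene's probe sets averaged, 1 with array weights, 1 with only the compared groups fitted and 1 to 3 without 1 array; TNIP1 was the gene lost in the first 3. With IKKβ(EE) against mock, 1 as reported, it was 0 with only the compared groups fitted, 0 with a 2-fold minimum added and 0 to 2 without 1 array. In the combination against IRF5-4D, 1 as reported, it was 0 with the 2-fold minimum and 0 to 1 without 1 array. The cause was not tested, except that NFKB1 lies under the 2-fold minimum there. Where a fit left a group with 1 array, that array was assumed to vary like the other groups. The labels do not say that the numbers 1 and 3 pair arrays, and deviations of same-numbered arrays correlated between groups at -0.05 to 0.30, over 0.1 in 4 of 6 pairs of groups. With the replicate number as a block the counts were 6, 3 and 2 in those comparisons, adding NFKB2, NFKBIA (adjusted p = 0.00552), NFKBIE (adjusted p = 0.0238) and TNFAIP3 in the combination, NFKB2 and NFKBIA (adjusted p = 0.0197) with IKKβ(EE), and TNIP1 in the combination against IRF5-4D. Over the whole array, probe sets called in the combination against mock numbered 1139, and 510 to 1919 under alternatives; with IKKβ(EE) 165, and 56 to 317; with IRF5-4D 106, and 42 to 174. The other comparisons gave 460 (195 to 954) in the combination against IRF5-4D and 607 (279 to 1038) against IKKβ(EE). Between the single constructs there were 264 (113 to 409), and 34 (1 to 108) for the departure from their sum. The upper ends of 1919, 954 and 1038 were counted at an adjusted p under 0.1. Without 1 array the counts were 588 to 978 (lowest without combination array 1), 35 to 169 (IKKβ(EE) array 1) and 32 to 135 (IRF5-4D array 1) against mock, 64 to 465 (IRF5-4D array 3) and 202 to 612 (IKKβ(EE) array 3) in the combination against each single construct, 59 to 289 (IKKβ(EE) array 1) between these and 7 to 128 (IRF5-4D array 3) for the departure. Dim probe sets, such as 211524_at of NFKB2 and 206035_at of REL, are not shown to lie above background.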
